A study of Mus musculus with 2 samples.

Results

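Krt1, Krt10 and Krt2 are the keratins of the suprabasal layers of the interfollicular epidermis, the skin between the hair follicles. They were taken by name, as 3 of the 32286 features that both libraries listed, and were followed through every keratinocyte state found in the data. The data are single-cell RNA-seq of mouse skin epidermis in 2 libraries, 1 per genotype. Mice of the first genotype, called GOF, carried Krt14rtTA and Survivin GOF on top of Involucrin-CREER and Rosa-SmoM2. The reference mice, called control, carried Involucrin-CREER and Rosa-SmoM2 alone. Both genotypes thus had SmoM2, an activated form of the hedgehog transducer Smoothened, switched on by a CreER under the promoter of involucrin, a gene of differentiating keratinocytes. The rtTA of the GOF mice is driven by the Krt14 promoter, which is active in basal keratinocytes. Cells were sorted as YFP-positive and CD34-negative with high integrin α6, and the series asks what Survivin does in the formation of basal cell carcinoma. The sources used here do not give the number, sex or age of the mice.

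Keratins form filaments as pairs of a type I and a type II chain. Basal keratinocytes make KRT5 (type II) and KRT14 (type I), and when a cell leaves the basal layer it changes to KRT1 (type II) and KRT10 (type I). KRT2, a further type II chain, appears later in the suprabasal layers, can pair with KRT10, and in mice is made mainly in tail, ear and foot skin. Mutations of these genes in people cause blistering and scaling disorders of the skin.

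Krt10, the type I member, is ENSMUSG00000019761 on chromosome 11 (mm10, 99385254 to 99389364, minus strand). The antisense gene Gm11940 lies within its span and had 107 UMIs (unique molecular identifiers, each standing for 1 captured RNA molecule) in GOF keratinocytes and 135 in control keratinocytes, against 281045 and 397798 for Krt10. The type II members lie close together on chromosome 15, in the same type II keratin cluster as Krt5. Krt1 is ENSMUSG00000046834 (101845426 to 101850794, minus strand) and Krt2 is ENSMUSG00000064201 (101810689 to 101818169, minus strand). All are protein-coding. The promoters shown are those of Krt10, the type I chain, and of Krt2, the type II chain that differed most between the libraries. That of Krt1 was not used here. RefSeq (GRCm38.p6) gives these 250 bases before their starts, at chr11:99389365-99389614 and chr15:101818170-101818419, both read 5′ to 3′ on the minus strand, with the letters TATATAA in capitals:
Krt10: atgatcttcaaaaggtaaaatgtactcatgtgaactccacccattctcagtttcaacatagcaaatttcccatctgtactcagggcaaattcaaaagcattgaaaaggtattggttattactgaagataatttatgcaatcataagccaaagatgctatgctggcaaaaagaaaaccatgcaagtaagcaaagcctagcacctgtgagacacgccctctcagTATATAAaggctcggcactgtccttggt
Krt2: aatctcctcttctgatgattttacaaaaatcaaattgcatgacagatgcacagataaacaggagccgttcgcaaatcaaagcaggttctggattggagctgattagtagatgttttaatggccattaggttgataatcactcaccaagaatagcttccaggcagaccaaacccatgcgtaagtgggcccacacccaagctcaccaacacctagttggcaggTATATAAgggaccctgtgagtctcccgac
TATATAA was searched on both strands and lay 28 to 22 bases before the start of Krt10 and 29 to 23 bases before that of Krt2. It is present in 3.04% of 32851 promoter windows of this length. TGANTCA, the AP-1 motif, and GCCNNNGGC, an AP-2 motif, were in neither window on either strand, and stand in 6.75% and 13.7% of all windows. These matches describe letters only.

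Cells were kept with at least 1500 genes and at most 10% mitochondrial UMIs, after removal of doublet candidates, which left 6494 GOF cells (median 12324.5 UMIs) and 10294 control cells (median 7648 UMIs). Of these, 6316 and 10121 were keratinocytes, that is, all but a melanocyte-like and an immune-like cluster. Birc5, which encodes Survivin, stood at 793 CPM (UMIs of the gene per 1000000 UMIs) in GOF keratinocytes and 55.1 CPM in control keratinocytes. Keratinocytes in which Y-linked UMIs were found without Xist, here male-called, numbered 1804 in GOF and 7350 in control, and the reverse, female-called, 3606 and 30. Genotype, library and animals cannot be told apart, and sex can be held fixed only in male-called cells. There is 1 library per genotype, so no test was possible and nothing could be checked in a replicate. Intervals are 95% and cover counting error only. The libraries shared 84 barcodes, 20 of them among kept cells. UMI counts read the 3′ end of each molecule and are not divided by gene length.

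All 3 keratins were concentrated in cluster 13, which is called differentiating keratinocyte-like. In it 14 of 18 markers of differentiating keratinocytes stood at least 2-fold above all other cells, and none of 14 basal markers did. Of the other lists, 5 of 11 cornifying, 1 of 5 tail-scale and 1 of 11 inner-follicle markers did. Cluster 14 was close to it, with 13 of 18 differentiating and none of 14 basal markers at least 2-fold up. It was not given this name because 2 tail-scale markers stood among its 10 leading genes and no differentiating marker did. Krt1, Krt10 and Krt2 had been left out of the clustering, and all 3 were among the 10 genes with the largest fold in cluster 13. Genes correlated with them stayed in, so levels by cluster are a description. Cluster 13 held 416 GOF cells and 672 control cells, 6.59% and 6.64% of keratinocytes. Of the keratinocytes' Krt1 UMIs it held 46.6% in GOF and 41.2% in control. Of their Krt10 UMIs it held 51.3% in GOF and 45.7% in control. Of their Krt2 UMIs it held 74.7% in GOF and 54.3% in control. The 5% of keratinocytes with the most UMIs of a keratin held 65.6% of Krt1 in GOF and 59.8% in control, 54.6% and 45.1% of Krt10, and 86.6% and 60.04% of Krt2. The highest cell held at most 1.39% of the UMIs of any of the 3 in either library. Integrin α6 mRNA (Itga6), the target of the sort, was 99.4 CPM in GOF cells and 147 CPM in control cells of the cluster, against 223 and 220 CPM over all keratinocytes. YFP was 1.30 CPM in GOF cells and 6.38 CPM in control cells of the cluster. In hedgehog-high cluster 8 (11 of 14 hedgehog-high basaloid markers at least 2-fold up) it was 30.5 CPM in GOF and 30.6 CPM in control.

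Krt10 reached 26814 CPM in GOF cells and 31348 CPM in control cells of cluster 13. Krt1 reached 11628 CPM in GOF cells and 6909 CPM in control cells of the cluster. Krt2 reached 7027 CPM in GOF cells and 15414 CPM in control cells. Krt10 was thus the most abundant of the 3 by UMIs in both libraries, while Krt1 came second in GOF and Krt2 second in control. The basal pair was low there. Krt5 was 2700 CPM in GOF and 2480 CPM in control cells of the cluster, against 7574 and 6520 CPM over all keratinocytes, and Krt14 was 5660 and 5257 CPM, against 15304 and 12887 CPM.

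Outside cluster 13, Krt1 and Krt10 were also high in cluster 2, led by Ntrk2, a neurotrophin receptor, Krt7, a keratin of simple and glandular epithelia, and the protease gene Klk8. Krt1 was 3654 CPM in its 696 GOF cells and 2302 CPM in its 575 control cells. Krt10 was 4981 CPM in GOF and 3812 CPM in control cells of cluster 2. Krt2 was 116 CPM in GOF and 360 CPM in control cells of cluster 2. These sums rested on a minority of the cluster. After thinning to 3000 UMIs per cell, 30.8% of its GOF and 20.4% of its control cells had at least 10 Krt1 UMIs, and the median cell had 1 in both libraries. A finer clustering put a Krt7- and Krt1-led cluster apart from one led by Ntrk2. In cluster 14, led by the tail-scale keratins Krt84 and Krt36, Krt10 was 7177 CPM in 184 GOF cells and 5182 CPM in 441 control cells. Krt1 there was 1625 and 860 CPM and Krt2 1124 and 1895 CPM, in GOF and control cells. In cluster 0, led by the cystatin genes Stfa3 and Cstdc5, Krt10 was 4817 CPM in 149 GOF cells and 7439 CPM in 190 control cells. Krt1 there was 2089 and 2325 CPM and Krt2 583 and 2138 CPM, in GOF and control cells.

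At the other end stood clusters 8, 10 and 20, among others. In hedgehog-high cluster 8, Krt10 was 395 CPM in 854 GOF cells and 1149 CPM in 1007 control cells. In cluster 10, which combined 11 of 14 hedgehog-high basaloid and 12 of 12 cycling markers, Krt10 was 335 CPM in 289 GOF cells and 818 CPM in 648 control cells. In sebaceous-marker cluster 20 (12 of 12 markers up) Krt10 was 276 CPM in 100 GOF cells and 565 CPM in 254 control cells. Of these 3 clusters, none had more Krt10 than the melanocyte-like cells of its library beyond the counting intervals. Other clusters with sebaceous or cycling markers stood higher. Sebaceous-marker cluster 25 (11 of 12 markers up), with 218 control cells and no GOF cell, had 4330 CPM of Krt10, and cycling cluster 4 (12 of 12 markers up) had 704 CPM of Krt1 in GOF and 663 CPM in control. Some clusters came almost entirely from 1 library, such as cluster 19 with 3 GOF and 1712 control cells. Its control cells had 3786 CPM of Krt10 and 1611 CPM of Krt2, and held 18.8% of the Krt10 and 19.3% of the Krt2 UMIs of control keratinocytes.

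**Figure D1:**
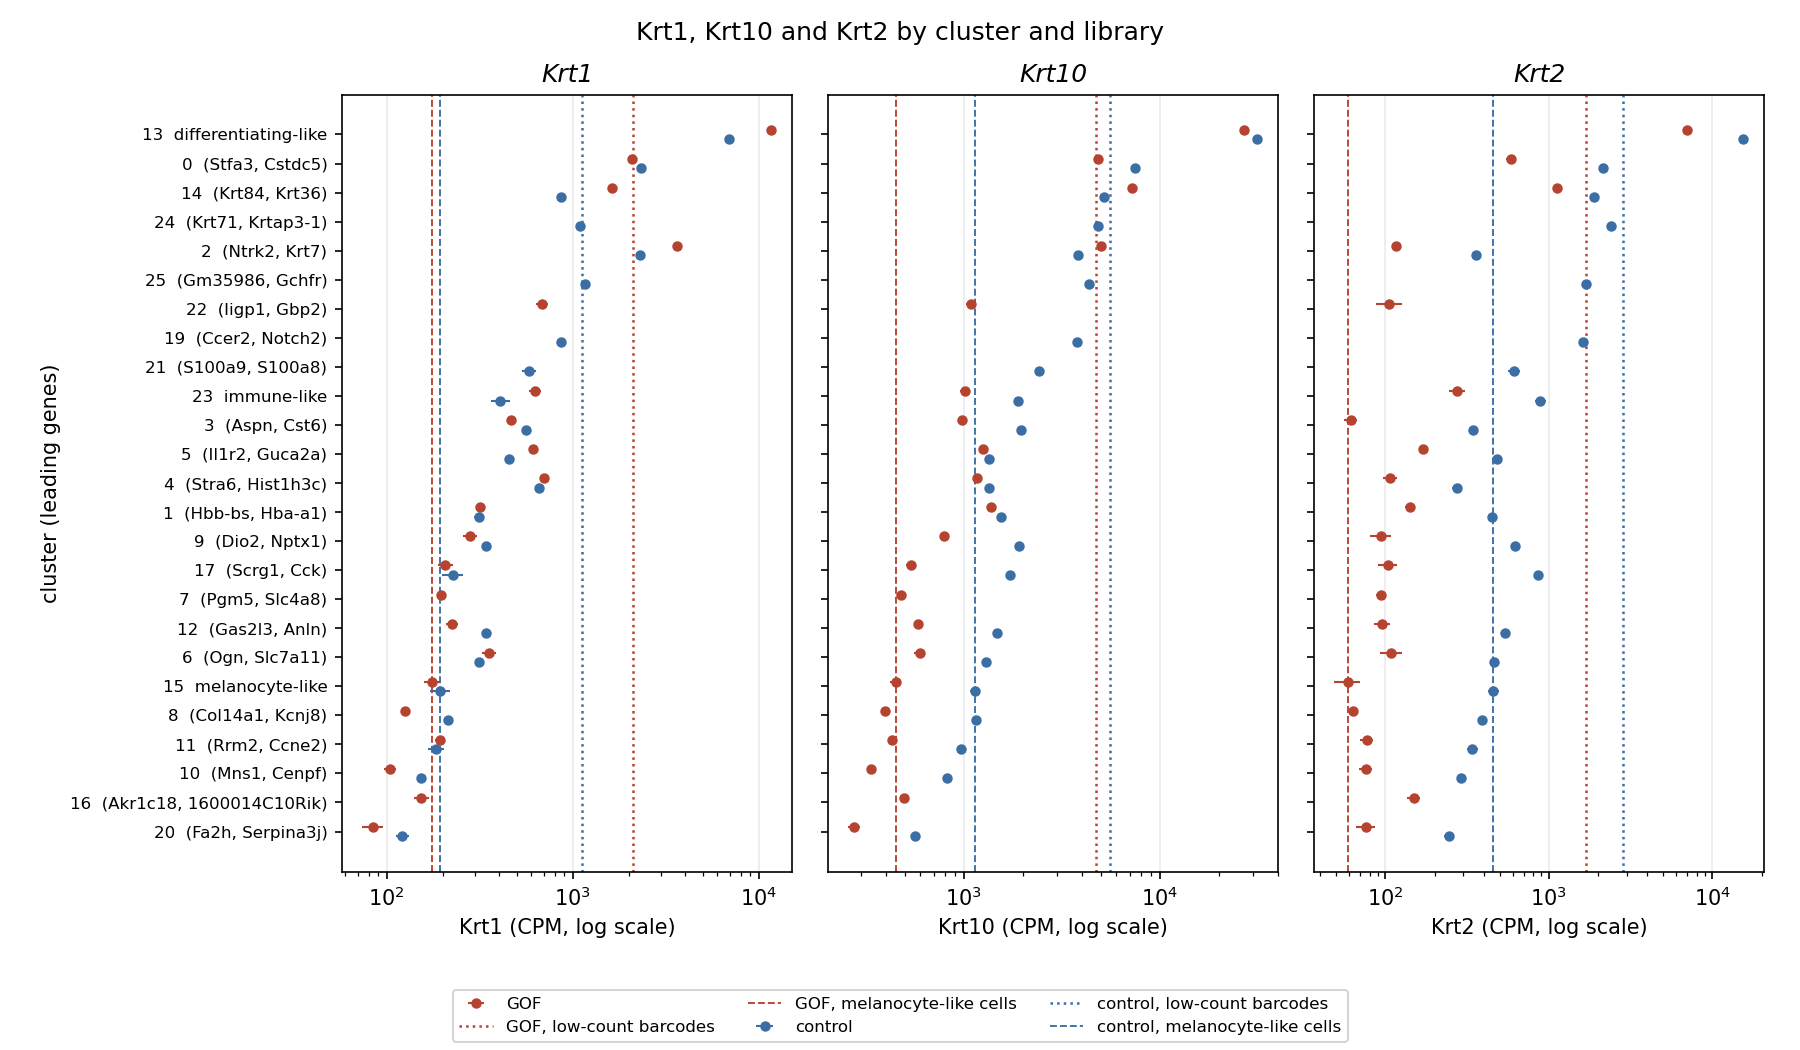
Level of Krt1, Krt10 and Krt2 (CPM, log scale) in each cluster with at least 50 cells of a library, GOF in red and control in blue, with exact Poisson 95% intervals; dotted lines mark low-count barcodes and dashed lines melanocyte-like cells. Cluster 13 stands to the right of every line in all 3 panels, and cluster 2 stands right of the dotted lines for Krt1 only in control, and for Krt1 and, narrowly, Krt10 in GOF.

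The order of the levels was set with the counting intervals of neighbours. For Krt1 in GOF, cluster 13 was followed by clusters 2, 0 and 14, all with intervals apart, and from cluster 4 (704 CPM) to cluster 5 (613 CPM) neighbours overlapped. For Krt1 in control, cluster 13 was followed by clusters 0 and 2, whose intervals overlapped. For Krt10, cluster 13 was followed by clusters 14, 2 and 0 in GOF, and by clusters 0, 14 and 24 in control, none overlapping its neighbour. For Krt2, cluster 13 was followed by clusters 14 and 0 in GOF, and by clusters 24, 0 and 14 in control, again with intervals apart. Cluster 24 had 66 control cells and no GOF cell.

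Low-count barcodes, those with fewer than 1500 genes, served as the level of free RNA, and cluster 13 stood above them for every keratin. Krt1 was 2097 CPM in 3145 GOF low-count barcodes and 1118 CPM in 11003 control ones, so cluster 13 was 5.54-fold higher in GOF (interval 5.44 to 5.65) and 6.18-fold higher in control (6.08 to 6.28). Krt10 was 4734 CPM in GOF and 5549 CPM in control low-count barcodes, and cluster 13 was 5.66-fold (5.59 to 5.74) and 5.65-fold (5.61 to 5.69) higher. Krt2 was 1683 CPM in GOF and 2836 CPM in control low-count barcodes, and cluster 13 was 4.17-fold (4.08 to 4.27) and 5.44-fold (5.38 to 5.49) higher. The summed 3 keratins stood 2.42 log2 units above low-count barcodes in GOF and 2.50 in control. With a coarser clustering, in which the class grew to 743 GOF and 1106 control cells, these differences were 1.76 and 1.92 log2 units. Few other clusters passed the low-count level beyond the counting intervals. Counting cluster 13, they were 2 for Krt1, 3 for Krt10 and 1 for Krt2 of 19 keratinocyte clusters with at least 50 cells in GOF, and 3, 2 and 1 of 20 in control.

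The low-count barcodes were themselves mixed. Their median Krt10 level was 2657 CPM in GOF and 3577 CPM in control, while 10.5% and 10.4% of them had over 10000 CPM and held 48.3% and 45.1% of their Krt10 UMIs. For Krt2, 3.28% of GOF and 5.36% of control low-count barcodes had over 10000 CPM and held 54.6% and 52.8% of the Krt2 UMIs. Krt14 in low-count barcodes was 8331 CPM in GOF and 9650 CPM in control. The melanocyte gene Pmel stood at 99.6 CPM in GOF and 54.0 CPM in control low-count barcodes, and Ptprc, the pan-leukocyte gene, at 0.502 and 1.70 CPM.

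A second background came from the melanocyte-like cells (126 GOF, 113 control; 8 of 8 melanocyte markers up), which are not known to make these keratins. In them Krt1 was 176 CPM in GOF and 194 CPM in control, Krt10 450 and 1136 CPM, and Krt2 58.7 and 458 CPM. Cluster 13 was 66.2-fold higher for Krt1, 59.7-fold for Krt10 and 120-fold for Krt2 in GOF, and 35.7-fold, 27.6-fold and 33.7-fold in control. The same cells had 20011 CPM of Krt14 in GOF and 17867 CPM in control, above the mean of keratinocytes, so they carried RNA of basal keratinocytes whose source was not tested. In the immune-like cells (52 GOF, 60 control) Krt10 was 1014 CPM in GOF and 1896 CPM in control. Above both of these backgrounds stood 5 clusters for Krt1, 7 for Krt10 and 3 for Krt2 of 19 in GOF, and 10, 8 and 6 of 20 in control.

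Because of this background, the share of cells with a UMI said little. After each cell was thinned to 3000 UMIs, which left out 10 GOF and 91 control kept cells, a Krt10 UMI was seen in 75.4% of GOF and 94.2% of control keratinocytes. Without thinning it was seen in 98.7% and 99.9%. In thinned melanocyte-like cells, with medians of 11774.5 UMIs in GOF and 9336 in control before thinning, the share was 73.0% and 92.0%. The thinned shares of keratinocytes with a Krt1 UMI were 45.4% in GOF and 56.9% in control, against 45.2% and 48.7% of melanocyte-like cells. Those with a Krt2 UMI were 27.7% in GOF and 71.1% in control, against 23.8% and 55.8% of melanocyte-like cells. In cluster 13, a thinned Krt1 UMI was seen in 88.5% of GOF and 83.9% of control cells, a Krt10 UMI in 99.8% and 100%, and a Krt2 UMI in 70.2% and 93.7%.

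Between the genotypes, the members moved in different directions. Over all keratinocytes, Krt1 was 1368 CPM in GOF and 982 CPM in control, a GOF to control ratio of 1.39 (1.38 to 1.41). Krt10 was 2868 CPM in GOF and 4016 CPM in control, a ratio of 0.714 (0.711 to 0.718). Krt2 was 516 CPM in GOF and 1661 CPM in control, a ratio of 0.311 (0.308 to 0.314). Of 14577 genes with at least 50 UMIs over both libraries, 6.81% were at least 1.5-fold higher in GOF and 5.41% at least 1.5-fold lower, and of the 3 keratins Krt2 alone passed that size. In a bulk sum of this kind, fewer cells of a state and less RNA per cell cannot be told apart, and the melanocyte-like cells differed in the same direction for Krt10 (ratio 0.396, 0.364 to 0.430) and Krt2 (0.128, 0.105 to 0.156).

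Within cluster 13, which made up a similar share of keratinocytes in both libraries, Krt1 was 1.68-fold higher in GOF (1.66 to 1.70). Krt10 had a ratio of 0.855 (0.849 to 0.861) and Krt2 of 0.456 (0.450 to 0.461). In this class 3% of 9302 genes were at least 1.5-fold higher in GOF and 6.05% at least 1.5-fold lower, and Krt1 passed the first size and Krt2 the second. Both directions stood in low-count barcodes too, with ratios of 1.88 for Krt1 (1.84 to 1.92) and 0.594 for Krt2 (0.581 to 0.606).

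The values also differed by sex call. In male-called cells of cluster 13, Krt1 was 15971 CPM in 121 GOF cells and 7019 CPM in 514 control cells, a ratio of 2.28 (2.24 to 2.31). Krt10 was 24360 CPM in male-called GOF and 31162 CPM in male-called control cells, a ratio of 0.782 (0.773 to 0.791). Krt2 was 2258 CPM in male-called GOF and 15249 CPM in male-called control cells, a ratio of 0.148 (0.143 to 0.153). Among male-called cells of the class, 2.94% of 8062 genes were at least 1.5-fold higher in GOF and 11% at least 1.5-fold lower. The 239 female-called GOF cells of the class had 9641 CPM of Krt1, 29191 CPM of Krt10 and 9941 CPM of Krt2. No female-called control cell fell in the class. Within the GOF library, Krt2 was therefore lower and Krt1 higher in male-called than in female-called cells. The difference from control was larger in male-called cells than over all cells of the class. Male-called and female-called cells come from different mice, so sex and animal cannot be told apart here. Over all male-called keratinocytes the ratios were 1.63 for Krt1, 0.624 for Krt10 and 0.117 for Krt2, with 5.54% of 13627 genes at least 1.5-fold higher and 7.08% at least 1.5-fold lower.

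The other states gave their own ratios. In cluster 2, Krt1 had a ratio of 1.59 (1.56 to 1.62) and Krt10 of 1.31 (1.29 to 1.33), and in its male-called cells of 1.24 (1.21 to 1.28) and 0.967 (0.946 to 0.989). In cluster 14, Krt1 had a ratio of 1.89 (1.80 to 1.98), Krt10 of 1.38 (1.36 to 1.41) and Krt2 of 0.593 (0.567 to 0.620). In cluster 0, Krt1 had a ratio of 0.898 (0.858 to 0.941), Krt10 of 0.648 (0.630 to 0.666) and Krt2 of 0.272 (0.254 to 0.292). In male-called cells the Krt1 ratio was 4.75 (4.45 to 5.07) in cluster 14, from 24 GOF and 335 control cells, and 1.01 (0.946 to 1.07) in cluster 0, from 60 GOF cells. The Krt2 ratio in the same cells was 0.0788 (0.058 to 0.105) in cluster 14 and 0.114 (0.0985 to 0.132) in cluster 0. Over all their cells, Krt2 was lower in GOF in clusters 13, 2, 14 and 0, whereas the sign of the Krt1 and Krt10 difference depended on the state. Among male-called cells, Krt1 was lower in GOF in none of these clusters. Of these clusters, cluster 13 alone had more Krt2 than the low-count barcodes of its library. Those barcodes also had less Krt2 in GOF, and the part of free RNA in the Krt2 ratios of clusters 2, 14 and 0 was not tested.

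**Figure D2:**
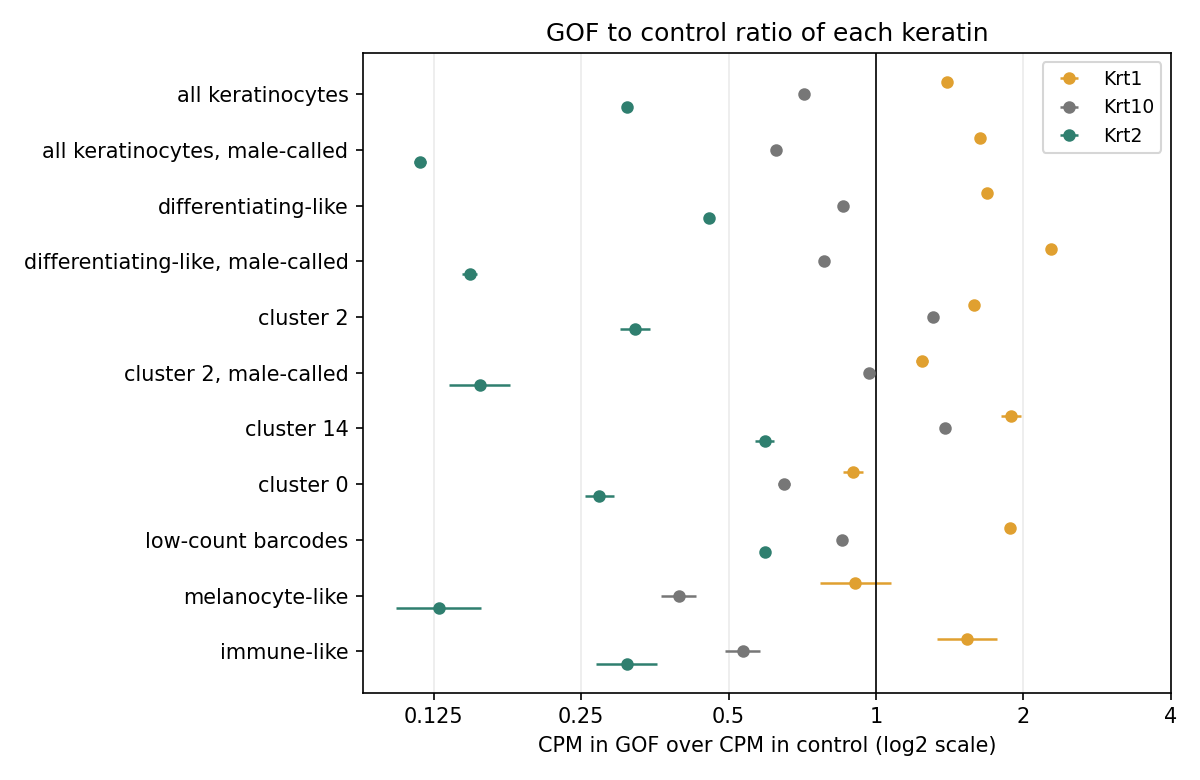
Ratio of the CPM in GOF to the CPM in control (log2 scale) for Krt1, Krt10 and Krt2 in named cell groups, with exact conditional 95% intervals that cover counting error only. Krt2 lies left of 1 in every group, between 0.117 and 0.594, and Krt1 lies right of 1 except in cluster 0 and the melanocyte-like cells.

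The part of Krt10, the type I chain, among the summed UMIs of the 3 keratins varied less between the libraries in cluster 13 than the parts of the type II chains. Krt10 held 58.97% of their summed UMIs in GOF and 58.4% in control cells of cluster 13, 57.2% in its male-called GOF cells, 59.9% in its female-called GOF cells and 58.3% in its male-called control cells. In cluster 2 it held 56.9% in GOF and 58.9% in control, and in low-count barcodes 55.6% and 58.4%. It was not constant over the states. Over clusters with at least 50 cells of a library it ran between 52.9% (immune-like cells) and 74.998% (cluster 1) in GOF and between 58.2% (cluster 24) and 68.3% (cluster 3) in control. In cluster 14 it was 72.3% in GOF and 65.3% in control, and in cluster 1, led by hemoglobin genes, 74.998% and 66.9%. In female-called GOF cells of clusters 14 and 1 it was 76.8% and 79.8%. In cluster 13 the remaining part was divided differently between the type II chains. Krt2 held 15.5% in GOF and 28.7% in control cells of cluster 13. It held 5.30% in male-called GOF, 20.4% in female-called GOF and 28.5% in male-called control cells. In cluster 2 Krt2 held 1.32% in GOF and 5.56% in control. In low-count barcodes Krt2 held 19.8% in GOF and 29.8% in control, and in melanocyte-like cells 8.58% and 25.6%.

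**Figure D3:**
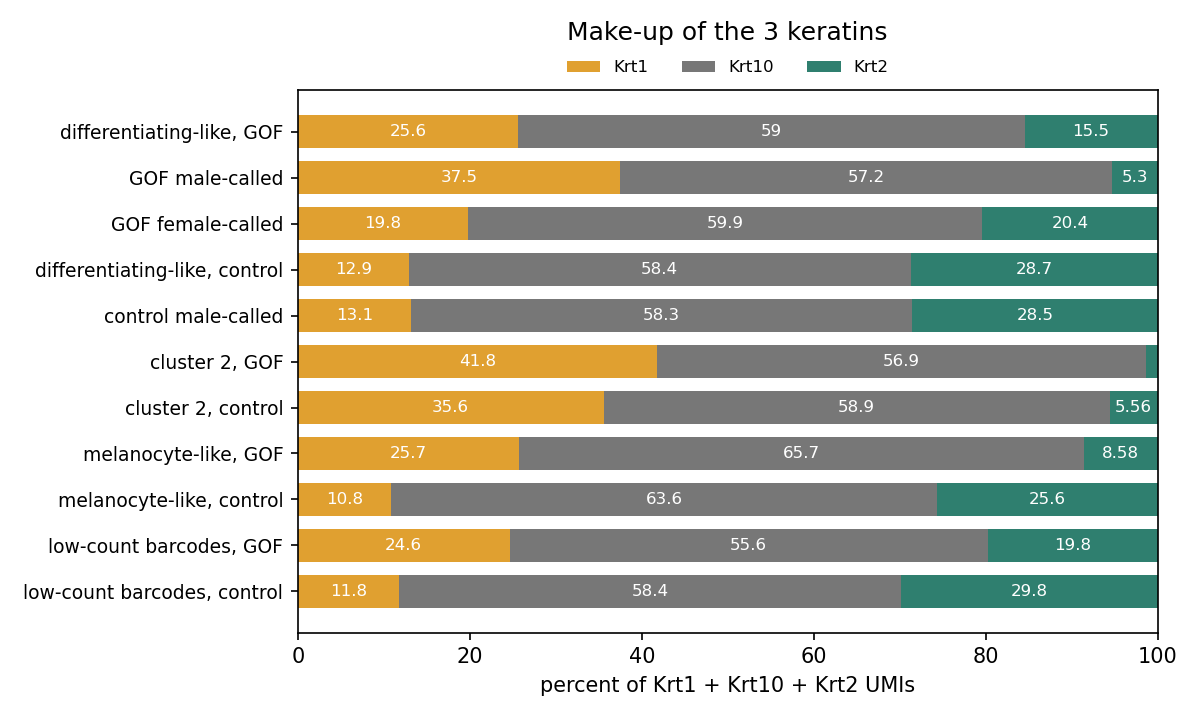
Percent of the summed Krt1, Krt10 and Krt2 UMIs that each keratin held, by cell group and library, GOF above control. In the groups drawn the grey Krt10 part lies between 55.6% and 65.7%, while the Krt2 part runs from 1.32% in GOF cells of cluster 2 to 29.8% in control low-count barcodes.

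In single cells of cluster 13, Krt1 and Krt2 were inversely related. Over thinned cells, Krt1 and Krt2 had a Spearman correlation of -0.43 in 416 GOF cells and -0.47 in 665 control cells. Their sum had one of 0.85 in GOF and 0.87 in control with Krt10. Krt10 alone had 0.29 in GOF and -0.04 in control with Krt1, and 0.47 and 0.72 with Krt2. By sex call, Krt1 and Krt2 had a correlation of -0.13 in 121 male-called GOF cells, which held little Krt2, of -0.50 in 239 female-called GOF cells and of -0.49 in 511 male-called control cells. Other states differed. The Krt1 and Krt2 correlation was 0.04 in GOF and 0.03 in control cells of cluster 2, and 0.16 and 0.20 in cluster 14. It was -0.02 and -0.05 in cluster 0, and 0.07 in control cells of cluster 19. The cells of a library share its depth and free RNA, so these values are descriptions. Cells were then sorted by the part of Krt1 in Krt1 plus Krt2, among those with at least 20 UMIs of the 3 keratins and at least 10 of Krt1 and Krt2, 375 in GOF and 609 in control. A cell with at least 90% Krt1 is called Krt1-dominant and one with at most 10% Krt2-dominant.

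Krt1-dominant cells were 49.1% of GOF cells (184 cells, 43.9% to 54.2%) and 14.6% of control cells (89 cells, 11.9% to 17.7%). Krt2-dominant cells were 21.9% of GOF cells (82 cells, 17.8% to 26.4%) and 47.5% of control cells (289 cells, 43.4% to 51.5%). The remaining 109 GOF and 231 control cells held both. Next to the limits lay 19 GOF and 42 control cells with 80% to 90% Krt1, and 14 and 38 with 10% to 20%. Both were the fullest steps between the limits in control, and that of 80% to 90% was the fullest in GOF. The counts of dominant cells thus depend on where the limits were set. Among male-called cells, 78 of 105 GOF and 71 of 471 control cells were Krt1-dominant, and 3 and 228 were Krt2-dominant. Among the 220 female-called GOF cells, 80 were Krt1-dominant and 74 Krt2-dominant. In cluster 2, 202 of 213 GOF and 104 of 123 control cells were Krt1-dominant, and 0 and 1 were Krt2-dominant. Cells that held both were 9 of 31 GOF and 19 of 63 control cells in cluster 14. They were 9 of 37 and 40 of 87 in cluster 0, and 408 of 503 control cells in cluster 19. The median part of Krt1 in those cluster 19 cells was 28.6%, against 28.3% in the summed UMIs of control low-count barcodes. Cluster 19 also had less Krt10 and Krt2 than those barcodes, and the part of free RNA in its mixed cells was not tested.

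**Figure D4:**
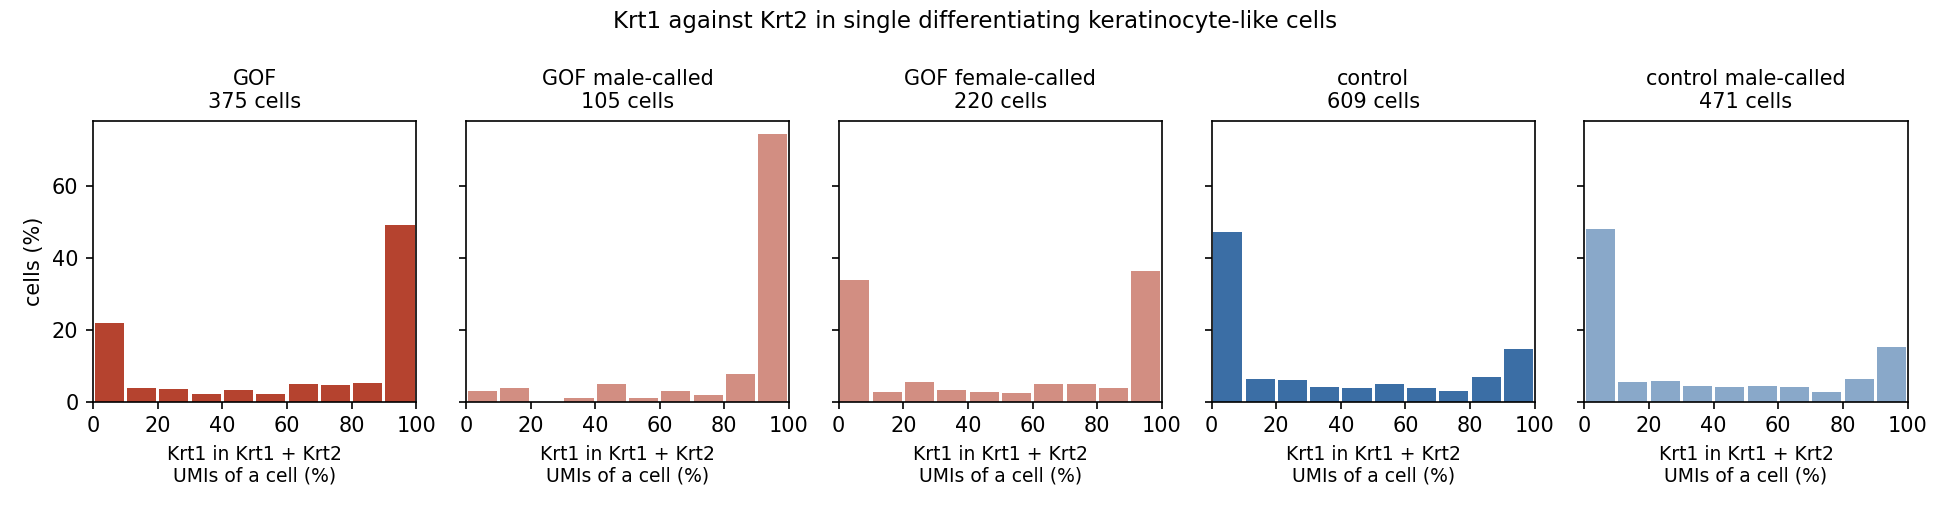
Percent of differentiating keratinocyte-like cells in each 10-percent step of the part of Krt1 in Krt1 plus Krt2 UMIs (thinned cells), for GOF, its male-called and female-called cells, control and its male-called cells. Cells gather at both ends except in male-called GOF cells, with the right end the taller in GOF (49.1%) and the left in control. Of male-called GOF cells, 74.3% lie in the last step and 2.86% in the first.

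Krt10 differed between the kinds of cell in the same direction in both libraries. Krt1-dominant cells had 25244 CPM of Krt10 in GOF and 25771 CPM in control. Krt2-dominant cells had 35643 CPM of Krt10 in GOF and 39187 CPM in control, more than the Krt1-dominant cells of the same library. The keratin that defined each kind was at 18908 CPM (Krt1, GOF) and 18676 CPM (Krt1, control) in Krt1-dominant cells, and at 22669 CPM (Krt2, GOF) and 27598 CPM (Krt2, control) in Krt2-dominant cells. Krt5 and Krt14 were higher in Krt1-dominant cells. Krt14 was 4778 CPM in Krt1-dominant and 3657 CPM in Krt2-dominant GOF cells, and 6362 and 3718 CPM in control cells. Itga6 was 106 CPM in Krt1-dominant and 72.9 CPM in Krt2-dominant GOF cells, and 170 and 133 CPM in control cells. Median depth was 12097 UMIs in Krt1-dominant and 12157 in Krt2-dominant GOF cells, and 8358 and 7153 UMIs in control cells.

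Other genes separated the same cells, by a rule chosen after the keratin values had been seen. Of 3585 genes compared in both libraries, 11 (0.307%) were at least 2-fold higher in Krt1-dominant cells in both, and 7 (0.195%) at least 2-fold higher in Krt2-dominant cells in both. The clearest was Wfdc17, a whey acidic protein family gene, at 224 CPM in Krt1-dominant and 7588 CPM in Krt2-dominant GOF cells, and 57.7 and 1097 CPM in control cells. After thinning, it was seen in 16.3% of Krt1-dominant and 78.0% of Krt2-dominant GOF cells, and in 10.1% and 41.9% in control. Krt24, a type I keratin, was 180 CPM in Krt1-dominant and 909 CPM in Krt2-dominant GOF cells, and 360 and 989 CPM in control cells. F3, the gene of tissue factor, was seen in 12.5% of Krt1-dominant and 35.4% of Krt2-dominant GOF cells, and in 12.4% and 28.0% in control. Hal, which encodes histidine ammonia-lyase, was 33.0 CPM in Krt1-dominant and 117 CPM in Krt2-dominant GOF cells, and 15.8 and 60.9 CPM in control cells.

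On the Krt1-dominant side Krt16, a type I keratin, came first, at 440 CPM in Krt1-dominant and 54.7 CPM in Krt2-dominant GOF cells, and 758 and 160 CPM in control cells. Krt6a, a type II keratin, was 489 and 204 CPM in GOF and 497 and 130 CPM in control cells. After thinning, Krt16 was seen in 21.7% of Krt1-dominant and 12.2% of Krt2-dominant GOF cells, and in 24.7% and 19.4% in control. Krt6a was seen in 23.4% and 14.6% in GOF and in 32.6% and 19.4% in control. For both genes these shares differed less than the summed levels. Next after Krt16 stood Sox9, a transcription factor of hair follicle and hedgehog-driven cells. Sox9 was the only 1 of 14 hedgehog-high basaloid markers that could be compared. It was 108 CPM in Krt1-dominant and 12.1 CPM in Krt2-dominant GOF cells, and 90.6 and 25.04 CPM in control cells. It was seen in 29.3% of Krt1-dominant and 2.44% of Krt2-dominant thinned GOF cells, and in 24.7% and 5.54% in control. C1qtnf12, which encodes the secreted protein adipolin, was seen in 32.6% and 4.88% in GOF and in 22.5% and 5.19% in control, in the same order of cells. Krt79, a keratin of the upper follicle, was 271 CPM in Krt1-dominant and 27.3 CPM in Krt2-dominant GOF cells, and 393 and 154 CPM in control cells. However, it was seen in 9.24% of Krt1-dominant and 9.76% of Krt2-dominant GOF cells, and in 23.6% and 26.3% in control, so its summed difference rested on few cells. Of the 10 upper-follicle markers 4 could be compared, and Krt79 and Defb6 were at least 1.5-fold higher in Krt1-dominant cells of both libraries. Defb6 was seen in 13.6% of Krt1-dominant and 13.4% of Krt2-dominant GOF cells, and in 22.5% and 13.8% in control, so its summed difference in GOF rested on few cells too. The same size and direction was met by 1% of all genes compared. Of the 14 comparable members of the differentiating list, 0 passed 1.5-fold in either direction in both libraries. The median thinned count per cell of the 10 genes with the largest folds on the Krt1-dominant side was 0 in both kinds of cell in both libraries.

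The keratins were also followed along a differentiation score, the summed UMIs of 19 other early differentiation genes per 3000 UMIs. Krt10 was higher in each higher bin, with means of 0.905 UMIs per 3000 in GOF and 1.82 in control at scores under 20, and 45.2 and 50.1 at scores of 160 or more. Krt1 in the same bins had means of 0.290 in GOF and 0.349 in control, and 19.3 and 9.88. Krt2 had means of 0.224 in GOF and 0.667 in control in the lowest bin, and 9.10 and 22.9 in the highest. Krt5 and Krt14 were highest at scores of 60 to 79, with Krt14 means of 75.7 in GOF and 56.3 in control, and lower in the top bin, at 32.7 and 21.2. The part of Krt10 among the 3 keratins stayed between 58.6% and 63.7% in GOF and between 58.7% and 65.0% in control over all 7 bins. However, the low bins lay near the background. Melanocyte-like cells had Krt10 means of 1.65 in GOF and 4.11 in control, above those of the lowest bin. At scores from 40 to under 60 the means were 1.98 and 3.90. The part of free RNA in the low bins was not tested. The part of Krt2 in the top bin was 12.4% in GOF and 27.6% in control, and 3.69% in male-called GOF, 16.9% in female-called GOF and 27.9% in male-called control cells. Cells with at least 3 UMIs of 12 mitotic genes were 33.6% of GOF and 33.3% of control cells in the lowest bin, and 1.10% and 1.93% in the highest.

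**Figure D5:**
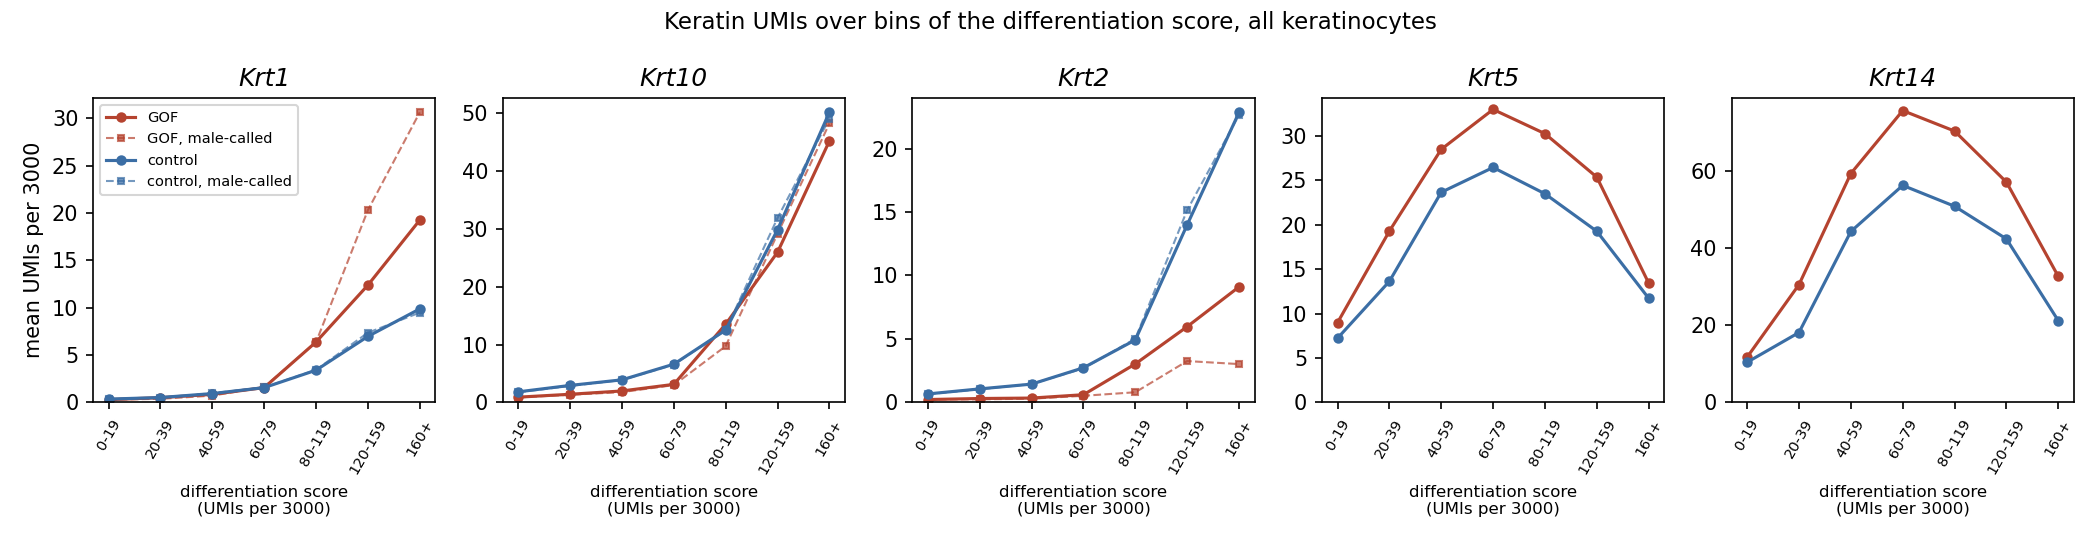
Mean thinned UMIs per 3000 of Krt1, Krt10, Krt2, Krt5 and Krt14 over 7 bins of the differentiation score, GOF in red and control in blue, with male-called cells as dashed lines for the 3 suprabasal keratins. Krt10 reaches 45.2 in GOF and 50.1 in control, Krt1 ends higher in GOF and Krt2 higher in control, and Krt5 and Krt14 peak at scores of 60 to 79.

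Over the 43 combinations of cluster and library with at least 50 cells, log2(CPM + 1) of Krt1 and Krt10 had a Pearson correlation of 0.92, Krt10 and Krt2 of 0.87, and Krt1 and Krt2 of 0.67. These points share libraries and free RNA. Of 11230 other genes with at least 500 UMIs, those most like Krt1 were Tmprss4, a membrane serine protease (0.87), Klk8 (0.85), Chit1, a chitinase (0.84), Serpinb12 (0.83) and Calm4, a calmodulin-like gene of differentiating epidermis (0.82). Those most like Krt10 were Serpinb12, a serine protease inhibitor (0.92), Tmprss4 (0.92), Tdh (0.88), Ankrd35 (0.87) and Calm4 (0.86). Those most like Krt2 were Pla2g4f, a phospholipase (0.87), Serpinb12 (0.87), Krt24 (0.85), Gm94 (0.81) and Krt78 (0.79).

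The surrounding differentiation genes were counted against all genes tested, of which 6.81% were at least 1.5-fold higher and 5.41% at least 1.5-fold lower in GOF keratinocytes, and 5.54% and 7.08% in male-called ones. Of 18 other early differentiation genes with enough UMIs, 0 were at least 1.5-fold higher and 2 at least 1.5-fold lower in GOF over all keratinocytes, with a median log2 ratio of -0.25 against 0.08 for all genes tested. In male-called keratinocytes 0 of 18 were higher and 6 lower, median -0.40 against 0.06. The 2 lower over all keratinocytes were Ly6g6c (85.6 CPM in GOF, 134 CPM in control) and Calm5 (13.4 and 20.3 CPM), followed by the transglutaminase gene Tgm3 (46.7 and 68.8 CPM). In the differentiating class the same list had a median of 0.05 against -0.01 for all genes, with 1 of 17 at least 1.5-fold lower. Of 13 cornified envelope genes, 1 was higher and 5 lower, median -0.52, and in male-called keratinocytes 1 was higher and 11 lower, median -1.93 against 0.06 for all genes. Within the class, where 7 could be compared, 3 were higher and 0 lower, median 0.01 against -0.01, and in its male-called cells 0 were higher and 2 lower of 4, median -0.55 against -0.05. The shares over all genes were 3% higher and 6.05% lower in the class, and 2.94% and 11% in its male-called cells. Over all keratinocytes all 13 were low, the highest being Sprr1b at 36.4 CPM in GOF and 54.6 CPM in control. The late cornified envelope gene Lce1c was 0.143 CPM in GOF and 1.69 CPM in control, Lce1a2 0.173 and 1.94 CPM, Lce1m 0.0816 and 0.828 CPM, and involucrin (Ivl), whose promoter drives CreER, 2.16 and 1.69 CPM.

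Of 10 other type II epithelial keratins, 1 was at least 1.5-fold higher and 3 lower, median log2 ratio -0.02, against the 6.81% and 5.41% of all genes and their median of 0.08, which also stand behind the counts that follow. Krt78, a suprabasal keratin, was 1.77 CPM in GOF and 4.78 CPM in control, Krt4 0.510 and 1.14 CPM, and Krt6b, a keratin of stressed epidermis, 72.5 and 46.0 CPM. The Krt6b difference had the opposite sign in male-called keratinocytes (log2 ratio -0.91) and within the class (2.98 CPM in GOF, 93.7 CPM in control). Of 11 other type I epithelial keratins, 2 were higher and 3 lower, median -0.00228. Krt24 was 58.4 CPM in GOF and 148 CPM in control, and within the class 366 and 708 CPM, the same direction as Krt2. Krt23 was 0.674 CPM in GOF and 0.182 CPM in control, and Krt13 0.204 and 0.525 CPM. Of 19 differentiation transcription factors, 0 were higher and 1 lower, median 0.01. The lower one was Prdm1 (0.867 CPM in GOF, 1.504 CPM in control), and the next by size were Ovol2 (9.82 and 6.86 CPM) and Elf3 (0.378 and 0.273 CPM). Of 11 keratin cross-linking and anchoring genes, 1 was higher and 0 lower, median 0.01. It was Tchh, trichohyalin of the inner root sheath (33.4 CPM in GOF, 12.1 CPM in control), followed by filaggrin, Flg (2.62 and 1.92 CPM), and envoplakin, Evpl (57.2 and 77.2 CPM). Within the class Flg was 33.7 CPM in GOF and 2.42 CPM in control, and in male-called cells of the class 1.996 and 2.97 CPM. Over all male-called keratinocytes Flg had the opposite sign to that over all keratinocytes (log2 ratio -1.31).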

How the data were processed

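Single-cell 3′ RNA-seq was measured in 1 GOF and 1 control library. The matrices the authors deposited hold raw UMI counts per gene and barcode. Their headers name Cell Ranger 6.1.1, and R 4.3.0, Seurat 4.2.0 and mm10 are named in the submitters' processing notes. The labels' protocols give 10000 loaded cells per channel, 8046 cells for the control genotype, and part names of both V2 and V3 chemistry. The GOF matrix held 11438 barcodes with 126329382 UMIs, the control matrix 24844 barcodes with 146216083 UMIs. No column of per-sample values was left unmapped. Of 32286 features, 32158 identifiers were found in GENCODE vM21 (mm10).

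Cells with at least 1500 genes and at most 10% mitochondrial UMIs were kept (6922 GOF, 10993 control). Scrublet's automatic threshold marked 0 barcodes in both, so scores from the top 6% were removed (428 and 699 barcodes). Cells were clustered in scanpy 1.11.5 (Python 3.11.15; 2000 variable genes, 30 principal components, 15 neighbours, Leiden resolution 1) without integration and without Krt1, Krt10, Krt2, Birc5, YFP, mitochondrial, ribosomal and sex genes. A cluster was given a class name where at least 2 in 3 markers of a list were 2-fold up and no other list had more genes in its top 10; this rule was set after the clusters were seen. UMIs were summed per population and library and scaled to CPM. With 1 library per genotype no test was made. Poisson, conditional and Clopper-Pearson intervals are exact, at 95%, and cover counting error only. The ratio step was tested on simulated data. Named genes are the members, for each of 6 lists the 3 with the largest log2 ratio in keratinocytes among genes with at least 50 UMIs, for each member the 5 genes of most similar pattern, and Krt5, Krt14, Ivl, YFP, Itga6, Cd34, Pmel and Ptprc; Cd34 was at 0.551 CPM in GOF and 0.232 CPM in control keratinocytes. The members, lists and comparisons were chosen with earlier results of these data known.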

Additional observations from a re-analysis of the deposited data

Results flagged for a closer look

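Barcodes with at least 1500 genes and over 10% mitochondrial UMIs, which no comparison used, held more Krt1 and Krt10 in the GOF library than in control. Krt1 was 3891 CPM in 1371 GOF barcodes and 1436 CPM in 2848 control barcodes. Krt10 was 8717 CPM in GOF and 7929 CPM in control barcodes of this kind. Krt2 was 2823 CPM in GOF and 4800 CPM in control. All 3 keratins stood above the mean of keratinocytes of the same library in these barcodes, whose median depth was 4239 UMIs in GOF and 4350.5 UMIs in control. Their place in the skin was not tested.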

How the results depend on the processing

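None of the log2 ratios listed in this section changed its direction under the alternatives run for it. Of 68 alternative values, 56 moved outside the counting interval of the value reported, and 12 did not. Other ratios given above did change direction in male-called cells, those of Krt10 in cluster 2, Krt1 in cluster 0, Krt6b and Flg. The log2 ratios of GOF to control for Krt1, Krt10 and Krt2 over all keratinocytes were 0.48, -0.49 and -1.69. They were 0.49, -0.44 and -1.62 with at least 2000 genes per cell, 0.49, -0.50 and -1.72 with doublet candidates kept, 0.40, -0.57 and -1.77 with median-of-ratios size factors and 0.47, -0.49 and -1.69 with the 20 most abundant genes out of the denominator. They were 0.48, -0.50 and -1.55 as means of per-cell CPM, 0.71, -0.68 and -3.09 in male-called cells, 0.60, -0.25 and -1.39 after subtraction of the melanocyte-like level and 0.56, -0.39 and -1.57 without clusters over 95% from 1 library. In the differentiating class they were 0.75, -0.23 and -1.13. The same settings gave 0.71, -0.19 and -1.06 (2000 genes), 0.55, -0.45 and -1.53 (doublets kept), 0.76, -0.21 and -1.12 (size factors), 0.74, -0.23 and -1.14 (abundant genes out), 0.85, -0.22 and -1.11 (per-cell means), 1.19, -0.36 and -2.76 (male-called) and 0.77, -0.20 and -1.10 (subtracted). Other clusterings gave 0.71, -0.29 and -1.36 (resolution 0.5), 0.71, -0.30 and -1.07 (resolution 2) and 0.81, -0.23 and -1.10 (keratins used in the clustering).

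The log2 ratio of the summed keratins in the class to low-count barcodes was 2.42 in GOF and 2.50 in control. It was 2.39 and 2.65 with barcodes under 500 genes, 2.12 and 2.68 with at most 10% mitochondrial UMIs, and 2.55 and 2.62 as per-cell means. It was 2.27 and 2.58 with doublets kept, 1.76 and 1.92 at resolution 0.5, 2.45 and 2.60 at resolution 2, and 2.76 and 2.86 with the keratins used in the clustering. The causes were not tested. Of 24 shares of cells with a UMI at other depths, 21 moved, in the direction of the depth. No paired analysis was possible because each genotype had 1 library, and no replicate could be left out.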
